A study of Mus musculus with 7 samples.

Results

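The genes examined are 40 members of 2 lists that mark dividing cells, out of the 25700 gene IDs counted in the dental epithelium of newborn mice. The DNA replication list holds 17 genes that are transcribed most around the entry into S phase, and the mitosis list holds 23 genes that are transcribed most in G2 and mitosis. Members were found by matching the Ensembl IDs of the counts to GRCm38 gene symbols, a step that uses no measured value. The members and lists themselves were chosen with earlier results of these data known. All 40 were measured and all 40 passed the filter on low counts.

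The libraries came from the lower incisors of pups on the day of birth, whose dental epithelium was separated from the mesenchyme with Dispase. Each library is 1 pup, with its left and right incisors pooled. The 4 libraries numbered 1, 2, 7 and 10 were K14cre cre/+; Nogo-A fl/fl, called K14;Nogo-A, in which a Cre driven by the Keratin 14 promoter deletes Nogo-A, a form of the Rtn4 gene, in epithelial cells that express the promoter. The 3 libraries numbered 3, 8 and 9 were wild-type (wt), and the labels give no Cre or floxed allele for them. As labelled, the 2 genotypes differ in the Cre transgene as well as in the floxed alleles, and their contributions cannot be told apart. Values per library are given in the order of replicates above. The comparison asks whether transcripts of dividing cells differ when Nogo-A is deleted from the epithelium, and whether they follow the level of the enamel genes.

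The lower incisor of the mouse grows throughout life. Stem cells in the cervical loop at its posterior end give rise to dividing transit-amplifying cells, which leave the cell cycle as they become ameloblasts, the cells that secrete the enamel matrix. In the cell cycle, cyclin E drives cells into S phase, where the MCM helicase unwinds DNA and PCNA holds the polymerases on it, while cyclin A, cyclin B and CDK1 carry cells from G2 into mitosis. E2F factors are known for switching on replication genes. The DREAM and MuvB complexes, with B-MYB and FOXM1, are known for acting on mitotic genes through a short promoter element called CHR, often near CCAAT boxes that bind NF-Y.

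The promoters of both lists are shown first because they carry the difference in letters between the 2 lists. A RefSeq table for GRCm38.p6 held 34 promoter windows of 32 members, each from 250 bases before to 50 bases after the start. The other 8 members, Mcm4, Tpx2, Kif20a, Gins2, Foxm1, Aurkb, Ccne2 and Ccna2, are not in it. Motifs of 3 kinds were searched on both strands: CHR as TTTGAA or TTCGAA, the CCAAT box as CCAAT, and the E2F motif as TTTCCCGC, TTTGGCGC, TTTCGCGC or TTTGCCGC. A CHR was present in 14 of 18 windows of mitosis members (77.8%) and in 2 of 16 windows of DNA replication members (12.5%), against 19.2% of all 32851 windows of the table. An E2F motif was present in 1 of 18 mitosis windows (5.56%), that of Cdk1, and in 8 of 16 DNA replication windows (50%), against 2.26% of all windows. A CCAAT box was present in 88.9% of mitosis windows, 68.8% of DNA replication windows and 37.4% of all windows. The same 14 mitosis windows held both a CHR and a CCAAT box, against 7.53% of all windows. These matches are a description of letters and not of binding.

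The 200 bases before the start are printed for 4 mitosis members and 2 DNA replication members, 5′ to 3′ on the strand of the gene. They are the members with the smallest p for genotype in their list whose shown bases hold a CHR (mitosis) or an E2F motif (DNA replication) and lie outside the annotated transcripts of the gene. Capitals mark every CHR, CCAAT and E2F match on either strand, so that a motif read from the opposite strand appears as TTCAAA for the CHR or ATTGG for the CCAAT box.
Mki67, chr7:135716380-135716579, minus strand: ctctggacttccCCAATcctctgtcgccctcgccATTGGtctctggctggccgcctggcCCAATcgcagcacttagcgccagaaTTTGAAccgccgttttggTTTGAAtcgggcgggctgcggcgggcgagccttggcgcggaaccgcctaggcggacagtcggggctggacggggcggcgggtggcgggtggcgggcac
Top2a, chr11:99024190-99024389, minus strand: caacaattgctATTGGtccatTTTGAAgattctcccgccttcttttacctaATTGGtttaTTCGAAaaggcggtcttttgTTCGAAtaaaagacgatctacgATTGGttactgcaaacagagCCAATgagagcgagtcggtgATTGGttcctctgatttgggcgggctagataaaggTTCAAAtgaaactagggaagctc
Ccnb2, chr9:70421555-70421754, minus strand: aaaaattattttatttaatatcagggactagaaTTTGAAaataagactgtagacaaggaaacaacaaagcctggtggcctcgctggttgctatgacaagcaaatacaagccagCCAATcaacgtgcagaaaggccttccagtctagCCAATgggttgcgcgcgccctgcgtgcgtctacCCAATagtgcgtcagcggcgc
Kif11, chr19:37376182-37376381, plus strand: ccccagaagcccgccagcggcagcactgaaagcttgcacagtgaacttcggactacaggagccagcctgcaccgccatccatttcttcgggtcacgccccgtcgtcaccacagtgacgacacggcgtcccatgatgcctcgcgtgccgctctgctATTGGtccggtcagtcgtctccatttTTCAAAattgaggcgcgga
Mcm6, chr1:128359706-128359905, minus strand: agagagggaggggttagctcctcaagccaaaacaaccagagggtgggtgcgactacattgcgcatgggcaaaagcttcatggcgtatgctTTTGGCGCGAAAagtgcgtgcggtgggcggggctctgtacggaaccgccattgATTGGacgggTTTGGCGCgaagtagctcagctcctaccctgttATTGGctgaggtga
Mcm5, chr8:75109309-75109508, plus strand: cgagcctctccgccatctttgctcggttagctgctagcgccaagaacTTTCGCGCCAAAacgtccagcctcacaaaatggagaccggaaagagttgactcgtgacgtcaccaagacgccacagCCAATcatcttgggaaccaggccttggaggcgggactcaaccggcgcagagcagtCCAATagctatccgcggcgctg
Mki67 and Top2a carried 2 and 4 CHR matches among several CCAAT boxes. Within the printed bases Ccnb2 and Kif11 carried 1 CHR each, which in Kif11 lay 19 bases before the start. The window of Ccnb2 held a further CHR just after the start, outside the printed bases. In Mcm6 and Mcm5 E2F matches from both strands overlapped in 1 run of capitals.

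Transcripts of dividing cells were readily measured in every library. The members together took 0.291% to 0.329% of the counts in K14;Nogo-A and 0.293% to 0.464% in wt, out of library totals of 20929207 to 41219439 counts, and single members had between 192 and 15842 raw counts per library. Rtn4 had 297, 344, 328 and 340 CPM (counts scaled to library size, with TMM factors) in K14;Nogo-A against 281, 277 and 346 CPM in wt, but its gene count also holds the reads of isoforms other than Nogo-A and so does not check the deletion. Per kilobase of exon, Pcna was the highest member at 50.9 RPKM (TMM-scaled CPM per kilobase) and Cdc6, which loads the helicase, the lowest at 2.56. The exon length was that of all annotated transcripts of a gene merged, so levels compared between genes also depend on the annotation. The median level was 17.4 RPKM in both lists. The 6 MCM genes lay between 15.4 RPKM for Mcm2 and 30.9 RPKM for Mcm5, and their proteins form 1 complex, while the cyclin E genes were low, at 7.04 RPKM for Ccne1 and 3.36 RPKM for Ccne2. The mitotic cyclins were higher, at 34.4 RPKM for Ccna2, 37.8 RPKM for Ccnb2 and 17.4 RPKM for Ccnb1. Within the mitosis list, levels ran from 3.83 RPKM for Cenpf, a kinetochore protein, to 42.4 RPKM for Cdc20, the activator of the anaphase-promoting complex.

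No member passed the test of genotype: 0 of 40 had an adjusted p under 0.05 (edgeR's quasi-likelihood test, Benjamini-Hochberg over the 14791 genes tested), against 0.0338% of all genes, which is 5 genes, all lower in K14;Nogo-A. At an unadjusted p of 0.05 or less, 12 mitosis members were lower in K14;Nogo-A and 0 DNA replication members were lower or higher, against 6.66% of all genes lower and 6.25% higher. The 12 were Kif23, Cenpe, Mki67, Cenpf, Kif20a, Foxm1, Ccna2, Nusap1, Tpx2, Plk1, Top2a and Ube2c. With DESeq2, 2 members, Mki67 and Kif23, passed an adjusted p of 0.05, both lower, but DESeq2 also called more of all 14791 genes, 156 lower and 132 higher. The study's own thresholds (an unadjusted p of at most 0.05 and a log2 fold change of 0.5 or more, up or down) were met by 0 members, against 4.77% of all genes, 2.74% lower and 2.02% higher.

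Most members had negative log2 fold changes. All 23 mitosis members had a negative log2 fold change in K14;Nogo-A, from -0.46 to -0.09 with a median of -0.32, while over all genes 51.5% were negative and the median was -0.01. Of the 17 DNA replication members 14 were negative and 3 positive, from -0.29 to 0.12 with a median of -0.09. Members of a list moved together across libraries, so they are not separate observations of genotype, and the difference between the lists has no test here. In bulk RNA, fewer dividing cells, of the epithelium or of other tissue in the sample, and less of these RNAs per dividing cell cannot be told apart.

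**Figure D1:**
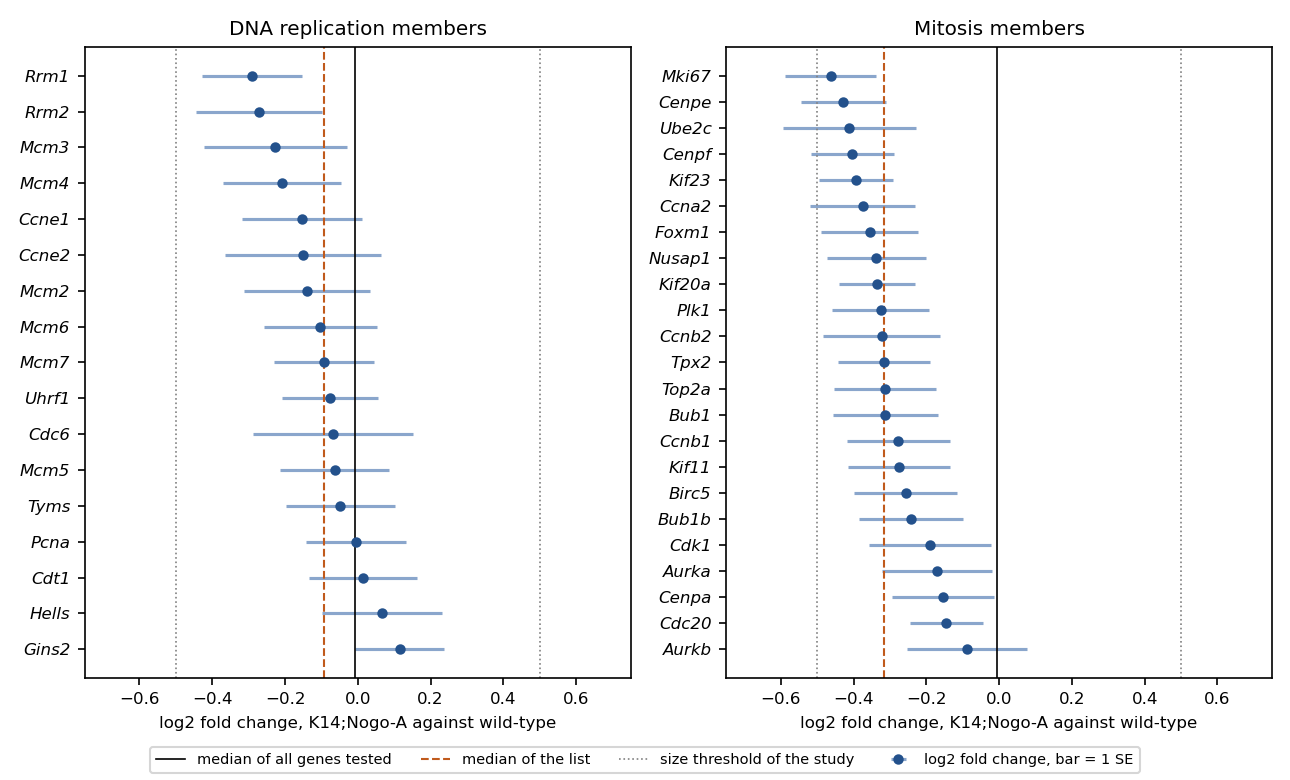
The log2 fold change of each member in K14;Nogo-A against wild-type is plotted on the horizontal axis for the 17 DNA replication members (left) and the 23 mitosis members (right), with bars of 1 standard error from edgeR, the median of each list dashed and the median of all genes tested as a solid line. The mitosis members lie between -0.46 and -0.09, and the DNA replication members between -0.29 and 0.12.

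Among the replication genes, the 6 subunits of the MCM helicase lay close together, with log2 fold changes from -0.23 (Mcm3) to -0.06 (Mcm5) and a median of -0.12. Mcm2 had 81, 98.3, 110 and 122 CPM in K14;Nogo-A and 98.5, 147 and 94.2 CPM in wt. The genotypes overlapped, and replicate 8 was the highest library. Its log2 fold change of -0.14 had a standard error of 0.17 (adjusted p = 0.77, edgeR). Mcm5 had 103, 113, 135 and 133 CPM in K14;Nogo-A and 113, 160 and 105 CPM in wt, a log2 fold change of -0.06 with a standard error of 0.15 (adjusted p = 0.89, edgeR). Replicates 3 and 9 lay within the K14;Nogo-A range. Mcm4 had 60.3, 80.1, 79.8 and 81.7 CPM in K14;Nogo-A and 82.3, 111 and 67.7 CPM in wt (log2 fold change -0.21 with a standard error of 0.16, adjusted p = 0.62, edgeR). Mcm3 had 77, 102, 117 and 119 CPM against 103, 161 and 98.5 CPM (log2 fold change -0.23 with a standard error of 0.20, adjusted p = 0.66, edgeR). For both, replicate 1 was the lowest library and replicate 8 the highest.

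Pcna, the sliding clamp of the replication fork, was nearly equal in the genotypes. It had 124, 107, 131 and 127 CPM in K14;Nogo-A and 111, 155 and 102 CPM in wt, means of 122 ± 10.4 (SD, n = 4) and 122 ± 28.4 (SD, n = 3), with a standard error of 0.14 on the log2 fold change. Gins2, which encodes a partner of the MCM helicase, had the highest log2 fold change of all members at 0.12. However, 67.3% of its exon bases are shared with Gse1 on the opposite strand. Of the licensing factors, Cdt1 stood at 0.01 and Cdc6 at -0.07. Uhrf1 and Hells, which maintain DNA methylation and chromatin at the fork, stood at -0.08 and 0.07.

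The subunits of ribonucleotide reductase, which makes the building blocks of DNA, had the most negative log2 fold changes of this list. Rrm1, the large subunit, had 152, 176, 196 and 177 CPM in K14;Nogo-A and 200, 266 and 177 CPM in wt, a log2 fold change of -0.29 with a standard error of 0.14 (adjusted p = 0.40, edgeR). Its small subunit Rrm2 had 65.8, 63.1, 74.7 and 66.2 CPM in K14;Nogo-A and 73.7, 110 and 60 CPM in wt (log2 fold change -0.27 with a standard error of 0.17, adjusted p = 0.53, edgeR). Replicate 8 was again the highest, and replicates 3 and 9 of Rrm2 lay on either side of replicates 1, 2 and 10. Tyms, thymidylate synthase and another enzyme of nucleotide synthesis, stood at -0.05. Cyclin E1, encoded by Ccne1, had 18, 15.2, 20 and 18.3 CPM in K14;Nogo-A and 16.5, 25.9 and 17.1 CPM in wt, a log2 fold change of -0.15 with a standard error of 0.17 (adjusted p = 0.73, edgeR).

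In the mitosis list, 5 members had every K14;Nogo-A library below every wt library, and 0 DNA replication members did. Over all genes 6.09% had such a gap in this direction and 5.43% in the other, which 0 members had. Mki67 (ENSMUSG00000031004, chr7:135689784-135716361), which encodes the Ki-67 antigen that coats mitotic chromosomes, had 151, 187, 206 and 190 CPM in K14;Nogo-A and 247, 294 and 220 CPM in wt. The genotypes did not overlap. Its log2 fold change of -0.46 was the largest in size of the 40 members, with a standard error of 0.13 (adjusted p = 0.22, edgeR). An exact two-sided permutation test gave an unadjusted p = 0.029, the smallest that 35 splits can give. All 5 members without overlap had this value, so it restates the gap. Top2a, the topoisomerase that untangles sister chromatids, had 210, 273, 288 and 279 CPM in K14;Nogo-A and 324, 386 and 269 CPM in wt, where replicate 9 lay inside the K14;Nogo-A range. Its log2 fold change of -0.31 had a standard error of 0.14 (adjusted p = 0.37, edgeR).

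Kif23 (ENSMUSG00000032254, chr9:61915905-61946774), a kinesin of the central spindle needed for cytokinesis, had the smallest adjusted p of the members. It had 53.9, 49.5, 58 and 52 CPM in K14;Nogo-A and 69, 78.3 and 62.6 CPM in wt. The K14;Nogo-A libraries lay close to each other and below all wt libraries, with a log2 fold change of -0.39 and a standard error of 0.10 (adjusted p = 0.20, edgeR). Cenpe (ENSMUSG00000045328, chr3:135212537-135273611), a kinetochore motor, had 34.1, 35.3, 34.8 and 29.1 CPM in K14;Nogo-A and 49, 47.2 and 38.1 CPM in wt. Cenpf (ENSMUSG00000026605, chr1:189640606-189688086) had 46.1, 55.7, 57.6 and 48.2 CPM in K14;Nogo-A and 72.3, 74.2 and 59.4 CPM in wt. Neither overlapped between genotypes. Their log2 fold changes were -0.43 and -0.40, with standard errors of 0.12 and 0.11 and an adjusted p of 0.22 for each (edgeR). The fifth such gene, the kinesin Kif20a, had its highest K14;Nogo-A library at 73.9 CPM and its lowest wt library at 74.3 CPM, so that its gap was narrow.

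The cyclins and their kinase overlapped between genotypes. Ccna2, encoding cyclin A2, had 131, 114, 142 and 112 CPM in K14;Nogo-A and 164, 196 and 124 CPM in wt (log2 fold change -0.38 with a standard error of 0.14, adjusted p = 0.32, edgeR). Ccnb1, encoding cyclin B1, had 69, 64.4, 76.1 and 59.1 CPM against 86.1, 95.9 and 61.8 CPM (log2 fold change -0.28 with a standard error of 0.14, adjusted p = 0.43, edgeR). Cdk1, the kinase that both activate, had 84.9, 76.6, 95.8 and 71.4 CPM against 94.9, 118 and 67.9 CPM (log2 fold change -0.19 with a standard error of 0.17, adjusted p = 0.66, edgeR). For Ccna2 and Ccnb1, wt replicate 9 lay within the K14;Nogo-A range, and for Cdk1 it was the lowest of all 7 libraries. Foxm1, the transcription factor of G2 and mitosis genes, had 51.6, 57.4, 65.6 and 57.3 CPM in K14;Nogo-A and 69.8, 91.6 and 61.1 CPM in wt, a log2 fold change of -0.36 with a standard error of 0.13 (adjusted p = 0.30, edgeR).

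By role, the 5 spindle genes (Kif11, Kif20a, Kif23, Nusap1 and Tpx2) had a median log2 fold change of -0.34, the 5 kinetochore and checkpoint genes (Bub1, Bub1b, Cenpa, Cenpe and Cenpf) -0.31, and the 4 mitotic kinases and chromosomal passengers (Plk1, Aurka, Aurkb and Birc5) -0.21. Ube2c, the ubiquitin-conjugating enzyme of the anaphase-promoting complex, stood at -0.41 and its activator Cdc20 at -0.15. Aurkb, the kinase of the passenger complex, was the mitosis member nearest to 0 at -0.09. Reads of opposite-strand neighbours may enter some counts, since 22.8% of the exon bases of Ube2c, 29.3% of Kif20a, 12.5% of Ccna2 and 17.4% of Ccne2 are shared, and whether the counting used strand is not given in the sources used.

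**Figure D2:**
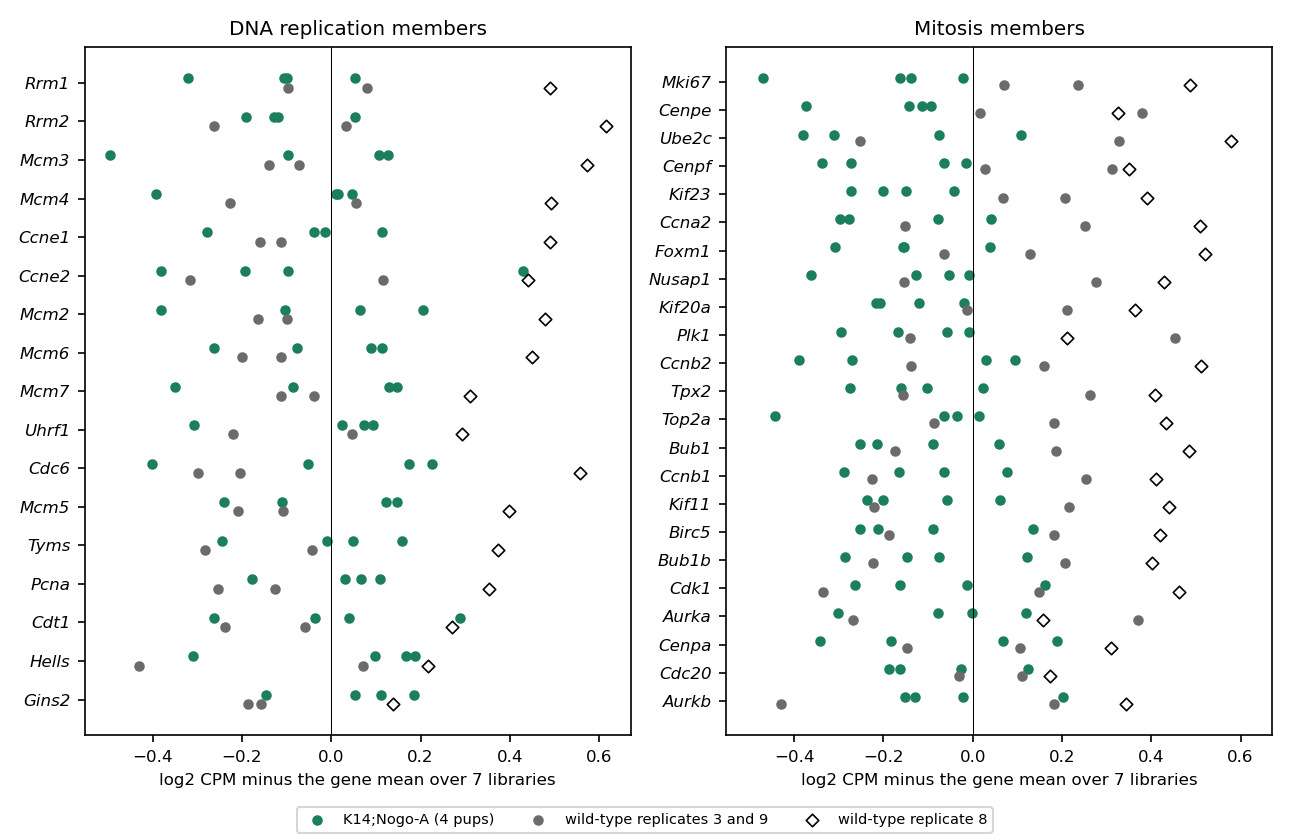
Each row is a member and each point a library, plotted as its log2 CPM minus the mean of that gene over the 7 libraries, with K14;Nogo-A in green, wild-type replicates 3 and 9 in grey and wild-type replicate 8 as open diamonds. Replicate 8 is the highest library for 15 of 17 DNA replication members and 20 of 23 mitosis members.

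One wt library stood at the top for most members. Replicate 8 was the highest of 7 in 15 DNA replication and 20 mitosis members, replicate 3 in 3 mitosis members, and K14;Nogo-A replicate 10 in 2 DNA replication members. At the other end, K14;Nogo-A replicate 1 was the lowest in 10 DNA replication and 6 mitosis members, and K14;Nogo-A replicate 10 in 12 mitosis members but 1 DNA replication member. Replicate 8 also had the lowest level of secretory enamel genes and the lowest sum of 10 epithelial markers of the 7 libraries. It had the highest mean log2 CPM of 6 endothelial markers (5.26), 6 immune markers (3.31) and 16 mesenchyme markers (8.73). Its mesenchyme sum of 27420 CPM, however, was the lowest of the wt libraries. The part of these markers in the member levels was not tested. Without replicate 8, the median log2 fold change was 0.10 for the DNA replication members and -0.17 for the mitosis members, of which 21 of 23 were negative. Without replicate 9, the wt library with the lowest mean level of both lists, the medians were -0.21 and -0.45, and 21 mitosis members instead of 12 had an unadjusted p of 0.05 or less, where 7.96% of all genes were lower at that p instead of 6.66%. Without replicate 8, 5 mitosis members did, against 3.72% of all genes.

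**Figure D3:**
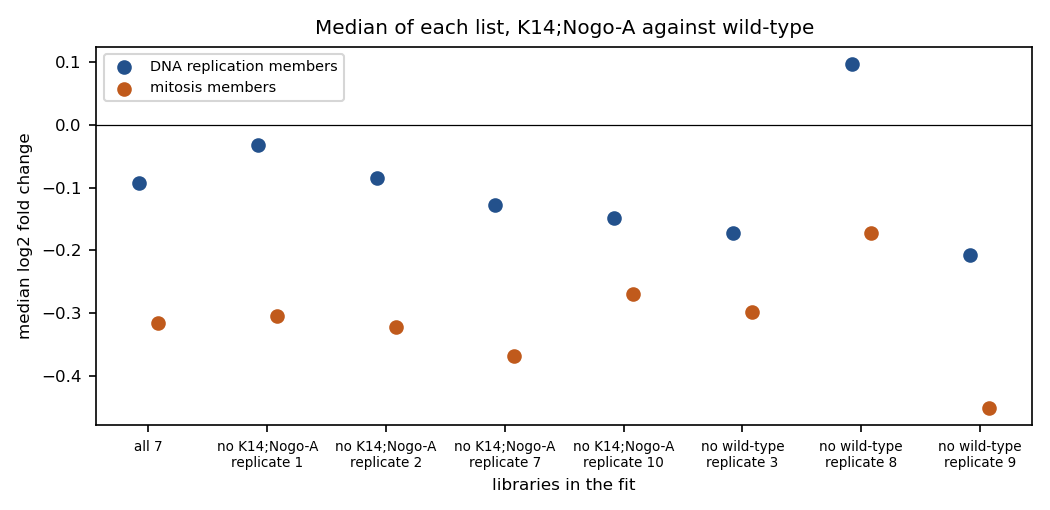
The median log2 fold change of the DNA replication members (blue) and the mitosis members (orange), K14;Nogo-A against wild-type, is plotted with all 7 libraries and with each library left out of the fit in turn. The mitosis median lies between -0.45 and -0.17 and the DNA replication median between -0.21 and 0.10, with the only positive value when wild-type replicate 8 is left out.

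The balance of S phase against mitosis genes was taken in each library as the mean log2 CPM over the DNA replication members minus that over the mitosis members. It was -0.33, -0.24, -0.27 and -0.02 in K14;Nogo-A and -0.60, -0.29 and -0.37 in wt. The value itself depends on gene lengths and is read only between libraries. It was highest in K14;Nogo-A replicate 10 and lowest in wt replicate 3, and the genotypes overlapped. The means were -0.22 ± 0.13 (SD, n = 4) and -0.42 ± 0.16 (SD, n = 3), a difference of 0.20, and it lay between 0.11 and 0.27 with any 1 library left out. Replicates 3 and 8, the wt libraries with the highest mitosis levels (6.41 and 6.57), differed in their DNA replication levels (5.81 and 6.28). Replicate 9 had a mitosis level of 6.03, within the K14;Nogo-A range of 5.93 to 6.23.

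**Figure D4:**
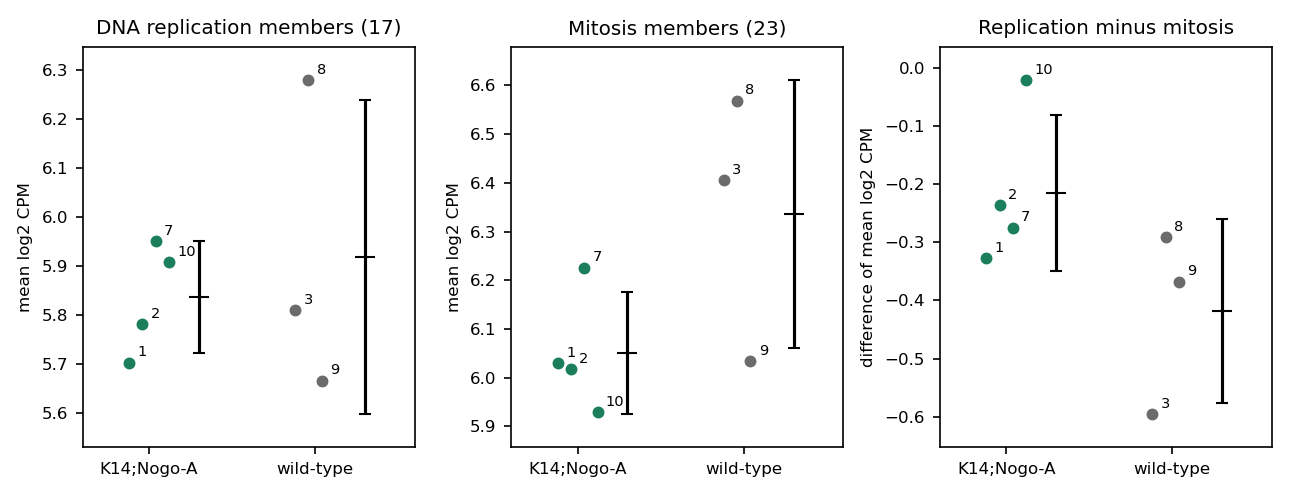
The mean log2 CPM of the 17 DNA replication members, that of the 23 mitosis members, and their difference are plotted for each library, numbered by replicate, with the mean and SD of each genotype beside the points. Replication minus mitosis is below 0 in all libraries, with a mean of -0.22 ± 0.13 for K14;Nogo-A and -0.42 ± 0.16 for wild-type.

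Members of a list varied together from library to library. Over the 7 libraries, the median Pearson correlation between pairs of members was 0.84 within the mitosis list, where 253 of 253 pairs were positive, 0.74 within the DNA replication list, and 0.56 between the lists. Each mitosis member is itself part of the mean mitosis level, which raises its correlation with that mean. Among them the spindle assembly factor Tpx2 had the highest correlation (r = 0.99) and Cenpa the lowest (r = 0.74). Of the DNA replication members, which are not part of that mean, Gins2 (r = 0.04) and Cdt1 (r = 0.11) had the lowest. These correlations describe 7 points that share library depth, genotype and dissection, and replicate 8 stood above the other libraries in the DNA replication level (6.28, the next being 5.95).

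Other markers differed between the same libraries. The level of secretory enamel genes, the mean log2 CPM of Amelx, Ambn, Enam and Mmp20, was 11.3, 13.3, 13.1 and 12.8 in K14;Nogo-A and 11.6, 10.2 and 11.7 in wt. The 16 mesenchyme markers all had a negative log2 fold change in K14;Nogo-A, with a median of -0.57, and their summed level ran from 11759 to 33743 CPM in K14;Nogo-A and from 27420 to 42130 CPM in wt. None of the 16 was at 0. Their mean log2 CPM did not overlap, at 8.06 ± 0.16 for K14;Nogo-A (SD, n = 4) against 8.69 ± 0.07 for wt (SD, n = 3). The 6 endothelial and the 6 immune markers had median log2 fold changes of -0.51 and -0.38, and the 10 epithelial markers 0.22. With the mesenchyme level as a covariate, the median of the mitosis members was -0.06, and 13 of 23 were negative. Of these members 0 had an unadjusted p of 0.05 or less, against 4.73% of all genes lower at that p. The DNA replication median in that fit was -0.11, with 10 of 17 negative, so the mitosis list was not the lower one there. Because the mesenchyme level separates the genotypes, that fit cannot tell mesenchyme level and genotype apart.

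Y-linked transcripts were present in K14;Nogo-A replicate 1 and in wt replicates 3 and 8, and near 0 in the other libraries. Among the 3 libraries with them, the mitosis level was lower by 0.46 in K14;Nogo-A (a difference of -0.46 on the log2 scale), and the DNA replication difference was -0.34. Among the 4 without them, the differences were 0.02 and 0.21. The difference in the mitosis members was thus seen within 1 of these 2 classes of library, each of which rests on a single library of 1 genotype. The balance of the lists differed by 0.12 and 0.19, in the same direction in both.

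The relation to the enamel genes was fitted within genotype, as the log2 change of a gene per log2 unit of the enamel level. A total of 0 members passed an adjusted p of 0.05 (edgeR), against 0.581% of all genes. The DNA replication members had a median slope of -0.08, with 15 of 17 negative, and the mitosis members one of -0.07, with 19 of 23 negative, while 51.2% of all slopes were negative. At an unadjusted p of 0.05 or less, 3 members had a negative slope, Ccne2, Pcna and Cenpa, against 4.25% of all genes, and 0 a positive one, against 7.18%.

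Ccne2, encoding cyclin E2, had the steepest slope of the members at -0.33 with a standard error of 0.09 (adjusted p = 0.21, edgeR). It had 15.5, 10.7, 10 and 8.81 CPM in K14;Nogo-A and 12.4, 15.6 and 9.22 CPM in wt, so that the library with the lowest enamel level of each genotype, replicate 1 and replicate 8, had the most Ccne2. Cenpa, the histone H3 variant of centromeres, had 81.7, 56.6, 75.2 and 63.2 CPM in K14;Nogo-A and 77.1, 88.8 and 64.7 CPM in wt, a slope of -0.20 with a standard error of 0.07 (adjusted p = 0.30, edgeR). With the enamel level in the fit, the median log2 fold change for genotype was -0.16 for the mitosis members, of which 3 had an unadjusted p of 0.05 or less (4.48% of all genes were lower at that p in this fit), and 0.04 for the DNA replication members. With any 1 library left out, the slope lay between -0.38 and -0.29 for Ccne2 and between -0.24 and -0.17 for Cenpa. The medians of the lists moved more. Without wt replicate 8 the median slope was 0.13 for the DNA replication members and -0.01 for the mitosis members, and without K14;Nogo-A replicate 1 it was -0.37 and -0.23.

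**Figure D5:**
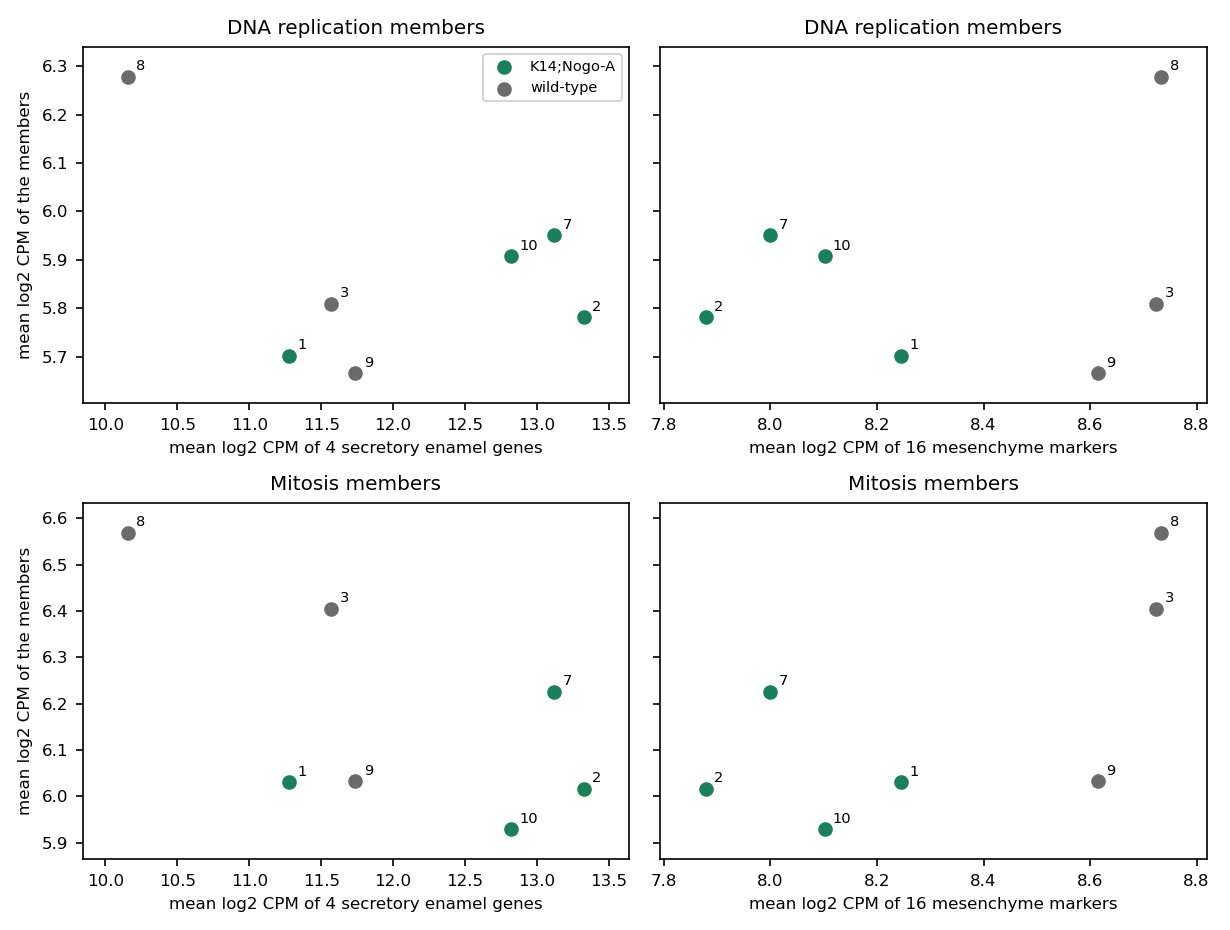
The mean log2 CPM of the DNA replication members (top) and the mitosis members (bottom) is plotted against the mean log2 CPM of 4 secretory enamel genes (left) and of 16 mesenchyme markers (right), with libraries numbered by replicate. Wild-type replicate 8 has the lowest enamel level (10.2) and the highest level of both lists, and the genotypes do not overlap in the mesenchyme level.

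Further cell cycle genes gave a picture of the pathway around the members. Of 63 other mitosis genes, 62 had a negative log2 fold change, with a median of -0.22, against 51.5% of all genes. At an unadjusted p of 0.05 or less 10 were lower, against 6.66% of all genes. The study's thresholds were met by 0 of them, against 4.77% of all genes. In 2 of the 63, every K14;Nogo-A library lay below every wt library, as in 6.09% of all genes. One of these was Cdc25b, the phosphatase that activates CDK1. It had 77.2, 70.3, 79.3 and 80.1 CPM in K14;Nogo-A and 91.4, 90.7 and 93.5 CPM in wt (log2 fold change -0.26 with a standard error of 0.08, adjusted p = 0.26, edgeR). Racgap1, which acts with Kif23 in cytokinesis, stood at -0.41 and the kinesin Kif15 at -0.38, both overlapping between genotypes. Of 46 other replication genes, 38 were negative with a median of -0.07. At an unadjusted p of 0.05 or less, 0 of them were lower or higher, against 6.66% and 6.25% of all genes. The smallest p among them were those of E2f7 (-0.31) and E2f8 (-0.34), repressors of the E2F family, and Dbf4 (-0.28), the partner of the kinase that fires origins.

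Upstream of both lists, 11 of 13 drivers of G1 were negative, with a median of -0.03. Ccnd2, encoding cyclin D2, had 297, 279, 287 and 274 CPM in K14;Nogo-A and 367, 349 and 328 CPM in wt, without overlap (log2 fold change -0.29 with a standard error of 0.09, adjusted p = 0.24, edgeR). Of the 13 drivers 1 had such a gap in this direction, against 6.09% of all genes. Ccnd1, the relative of Ccnd2, overlapped, with a log2 fold change of -0.15 (adjusted p = 0.60, edgeR). Of the 21 inhibitors and exit genes tested, out of 22 listed, 12 were positive and 9 negative, with a median of 0.09. Gadd45b, a stress-induced gene that restrains the cell cycle, was the only gene of these 4 lists past the study's thresholds. Over all genes 4.77% were past them, 2.02% higher. Gadd45b had 57.2, 49.6, 57.2 and 51.3 CPM in K14;Nogo-A and 36.4, 26.1 and 45.7 CPM in wt (log2 fold change 0.58 with a standard error of 0.16, adjusted p = 0.22, edgeR). All its K14;Nogo-A libraries lay above all wt libraries, as in 5.43% of all genes. Without wt replicate 8, 0 genes of these lists met the thresholds, Gadd45b included. The CDK inhibitor Cdkn1c, or p57, had 205, 74.7, 96.8 and 137 CPM in K14;Nogo-A and 199, 170 and 201 CPM in wt (log2 fold change -0.57 with a standard error of 0.33, adjusted p = 0.51, edgeR). Its K14;Nogo-A libraries were widely spread, with replicate 1 above all wt libraries. Cdkn1a, or p21, and Cdkn1b, or p27, had log2 fold changes of 0.18 and 0.11 (adjusted p = 0.67 and 0.71, edgeR).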

How the data were processed

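Incisor dental epithelium RNA of 7 newborn pups (4 K14;Nogo-A, 3 wild-type) was analysed, 1 library per pup, grouped by the sample labels. Another wt pup is not analysed here. Per the labels the authors deposited raw counts for Ensembl genes, made with bcl2fastq 2.19, adapter removal (Trimmomatic in the submitters' processing notes, fastp in the paper), STAR 2.7.1 on GRCm38 and featureCounts. The sources used do not say whether counting used strand. The lowest chi-square per degree of freedom between 2 libraries was 16.5, so all counted as separate samples. Totals of 20929207 to 41219439 counts and a common biological coefficient of variation of 15.2% set the precision.

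Symbols and coordinates came from GENCODE M21 (symbols were found for 25664 of 25700 IDs; 36 without one took 0.0348% of counts). Genes reaching 10 counts in 50% or more of 1 genotype's libraries (14791) were tested with edgeR 4.0.16 in R 4.3.3, TMM factors (0.962 to 1.06), the robust quasi-likelihood test of genotype and Benjamini-Hochberg adjustment over all genes. The enamel slope came from a second fit with genotype and the enamel level. Log2 CPM used a prior count of 2. The exact two-sided permutation test took 35 splits and can give no p under 0.0286. Tests were tried on simulated counts.

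Members, lists and named genes were chosen with earlier results of these data known. The members named are 10 central genes, the 4 of smallest p in each list and the smallest slope p of each list. From the other mitosis and the other replication list they are the 3 of smallest p each. From the G1 drivers and the inhibitors they are the gene past the study's thresholds and 5 G1 regulators. Values given by role, rank or list end were singled out after they were seen. Alternatives were RLE factors, other filters, DESeq2 1.42.0, limma-voom (limma 3.58.1), covariates and each library left out. Counts at an unadjusted p of 0.05, median slopes and the split by Y-linked transcripts were added after seeing the data.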

Additional observations from a re-analysis of the deposited data

Results flagged for a closer look

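Mcm4, a subunit of the replicative helicase, had 1 library far from the others of its genotype. K14;Nogo-A replicate 1 stood at 60.3 CPM and the other 3 at 79.8 to 81.7 CPM, and its gap to the nearest was 0.909 of the range of the 4 libraries, above the critical value of 0.829 in Dixon's test. Of 43 sets of values examined in the 4 K14;Nogo-A libraries, 1 was marked in this way, and chance marks about 1 in 20 groups. The 3 wild-type libraries are too few for the test.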

How the results depend on the processing

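The paper describes the controls as littermates, but the labels used do not give the litter of each pup. No paired analysis was therefore made. No cause was tested for the changes listed here. DESeq2 called 2 members at an adjusted p under 0.05 (Mki67, log2 fold change -0.46, and Kif23, -0.39) beside 156 lower and 132 higher of all 14791 genes, and 0 members passed in any other fit run. Mitosis members past the study's thresholds numbered 1 with the enamel level as covariate and 0 to 4 with a library left out, all lower. In the main fit 2.74% of all genes were lower past these thresholds, and the share in these fits is not given here. The 4 were without wild-type replicate 9, where an adjusted p under 0.05 was met by 48 lower and 45 higher of all genes. Those at an unadjusted p of 0.05 or less numbered 0, 5 and 3 with mesenchyme, Y-linked and enamel levels as covariates (4.73%, 7.17% and 4.48% of all genes were lower at that p), and 5 to 21 with a library left out (3.72% to 7.96% of all genes). For the DNA replication members this count was 1 without a filter on low counts, and 0 to 3 with a library left out (the highest without wild-type replicate 9). In the main fit 1 gene of the other cell cycle lists met the study's thresholds, against 4.77% of all genes. These lists had 4, 2 and 2 such genes with the mesenchyme covariate, the enamel covariate and limma-voom. With a library left out they had 0 to 7 (0 without wild-type replicate 8, where Gadd45b was lost). The share of all genes past the thresholds in those fits is not given here.

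The mitosis median was -0.062 with the mesenchyme covariate, -0.16 with the enamel covariate, and -0.45 to -0.17 with a library left out. The DNA replication median was -0.11 with the mesenchyme covariate, 0.04 with the enamel covariate, and -0.21 to 0.10 with a library left out. The median slope of the mitosis members was -0.14 without genotype in the fit and 0.32 on the mesenchyme level, on which the slopes of Ccne2 and Cenpa were 1.72 and 1.37. Of 289 alternative values of the 17 named members, 25 changed sign, 8 of them without wild-type replicate 8. With the mesenchyme covariate these were Pcna (0.52), Ccne1 (0.33), Ccna2 (0.093), Ccnb1 (0.049), Cdk1 (0.23) and Rrm2 (0.12). With the enamel covariate they were Pcna (0.26), Mcm5 (0.049), Ccne1 (0.14), Cdk1 (0.064) and Rrm2 (0.035). Pcna, close to 0, was also positive with the Y-linked covariate (0.078), RLE factors (0.0037), DESeq2 (0.0039) and limma-voom (0.017). With a library left out, values ran from -0.11 to 0.20 for Pcna, -0.25 to 0.10 for Mcm2, -0.17 to 0.15 for Mcm5, -0.27 to 0.094 for Ccne1, -0.36 to 0.015 for Cdk1, -0.44 to 0.015 for Rrm2, -0.35 to 0.011 for Mcm4 and -0.34 to 0.041 for Mcm3. The direction was kept by Mki67, Top2a, Kif23, Cenpe, Cenpf, Foxm1 and Rrm1 in every fit run.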
